A study of Mus musculus with 8 samples.

Results

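The Hox genes are the homeobox genes of the Hox A, B, C and D clusters, and the RNA of 38 of them was read in the adult male mouse mPFC, the medial prefrontal cortex. Members were chosen by their gene name in the array files (Hox, the cluster letter and the paralogue number), and 38 are described here of the 34741 genes named on the array. They are read by 42 probes, since 4 genes (Hoxa9, Hoxa13, Hoxb3 and Hoxd11) have 2 each. The family was taken up after Hoxa9 had been seen, on these same 8 arrays, among the genes whose groups did not overlap, so its difference between the groups is a description and no evidence.

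All 8 animals were C3H/HeN males. The MS group (n = 4) had been separated from the dam daily on postnatal days 2 to 14, while the dam received unpredictable stress. The control group (n = 4) had stayed undisturbed with the dam. Mice of both groups were weaned on postnatal day 21, were tested as adults in operant cages for a palatable food reward and were killed after a fast of 12 h. Each array held the Cy3-labelled RNA of 1 mouse, and arrays are named by group and animal number. The comparison addresses what early separation leaves behind in the expression of the adult mPFC.

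Hox genes encode transcription factors that give cells their position along the head-to-tail axis. Within a cluster they are switched on in the order in which they lie, and the most anterior limit of their domains is in the hindbrain. The forebrain, from which the cortex forms, develops in front of these domains, and there the clusters are held silent by Polycomb complexes. Retinoic acid and Trithorax complexes favour their expression, and TALE proteins (the Pbx, Meis and Prep factors) bind DNA together with Hox proteins.

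The readings below depend on short stretches of DNA on the array, and those with a repeated signal or a lone high reading are shown. Each probe holds 60 bases, of which 30 are printed from the array files, 5′ to 3′ in the sense direction. Capitals mark the longest unbroken run of A and G of that probe. Positions are on mouse build mm9, and the files do not say in which exon or UTR a probe lies.
Hoxa9, probe 1 (chr6:52174165-52174224, minus strand): caagctAGAAAGAAAAAGAAAGGActgtcc
Hoxa9, probe 2 (chr6:52175595-52175654, minus strand): tcctccagttgatAGAGAAAAAcaacccag
Hoxa7 (chr6:52165626-52165685, minus strand): attgattttagttacaaaaatGGGGGGAAA
Hoxb3 (chr11:96207114-96207173, plus strand): gcatgaagtacAAGAAAGAccagaaggcca
Hoxb7 (chr11:96151211-96151270, plus strand): gttgctagtAAGGtctttgtaaaatcttgc
Hoxd11, probe 1 (chr2:74522136-74522195, plus strand): AAAGAAAAGAAActgaacagggaccgtctg
Hoxd11, probe 2 (chr2:74525014-74525073, plus strand): acggcttttgtttAAAAcagattagggcgt
The first Hoxa9 probe held a run of 18 bases of A and G, the longest among the 42 Hox probes, and 0.559% of all 55681 probes had a run at least as long. The Hoxa7 probe had a run of 9 bases, reached by 14.3% of all probes, and 63.3% of its bases were A or G, a share reached by 8.91% of all probes. The second Hoxa9 probe also had a run of 9. Whether base composition has a part in the readings was not tested.

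A level here is the log2 of the background-subtracted signal minus the log2 of the 75th percentile of the same array, so that a level of -4 lies 4 log2 units below that percentile. A probe was called well above background where the scanner software marked its signal as positive, significant and clear of the noise of the background. Below this mark a level lies close to the noise and is uncertain. The lowest signals are only bounds, small positive values that the software put in place of the signal.

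Most Hox genes were not well above background in the mPFC. On all 8 arrays, 2 of 38 genes were well above background (5.26%), Hoxa7 and Hoxa9, which are neighbours in the Hox A cluster. Of the 34741 genes named on the array, 22642 were well above background on all 8 (65.2%). Of the Hox genes, 8 passed on exactly 1 array and none on 2 to 7 arrays. The other 28 passed on 0 arrays, which does not show that the RNA was absent. By the software's weaker mark, a positive and significant signal, 18 of these 28 had a signal on 1 array or more, with up to 7 arrays for Hoxa13 and Hoxc12, and 10 had none.

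Of 336 Hox readings (42 probes on 8 arrays), 24 were well above background (7.14%), against 65.1% of all readings of the arrays. A software-set low value stood in 199 of the Hox readings (59.2%), against 19.3% of all readings. The 28 genes whose named probes had no reading well above background were Hoxa2, Hoxa3, Hoxa5, Hoxa10, Hoxa11 and Hoxa13 of cluster A, Hoxb1, Hoxb2, Hoxb4, Hoxb5, Hoxb8 and Hoxb13 of cluster B, Hoxc4, Hoxc6, Hoxc8, Hoxc9, Hoxc10, Hoxc11, Hoxc12 and Hoxc13 of cluster C, and Hoxd1, Hoxd3, Hoxd4, Hoxd8, Hoxd9, Hoxd10, Hoxd12 and Hoxd13 of cluster D.

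**Figure D1:**
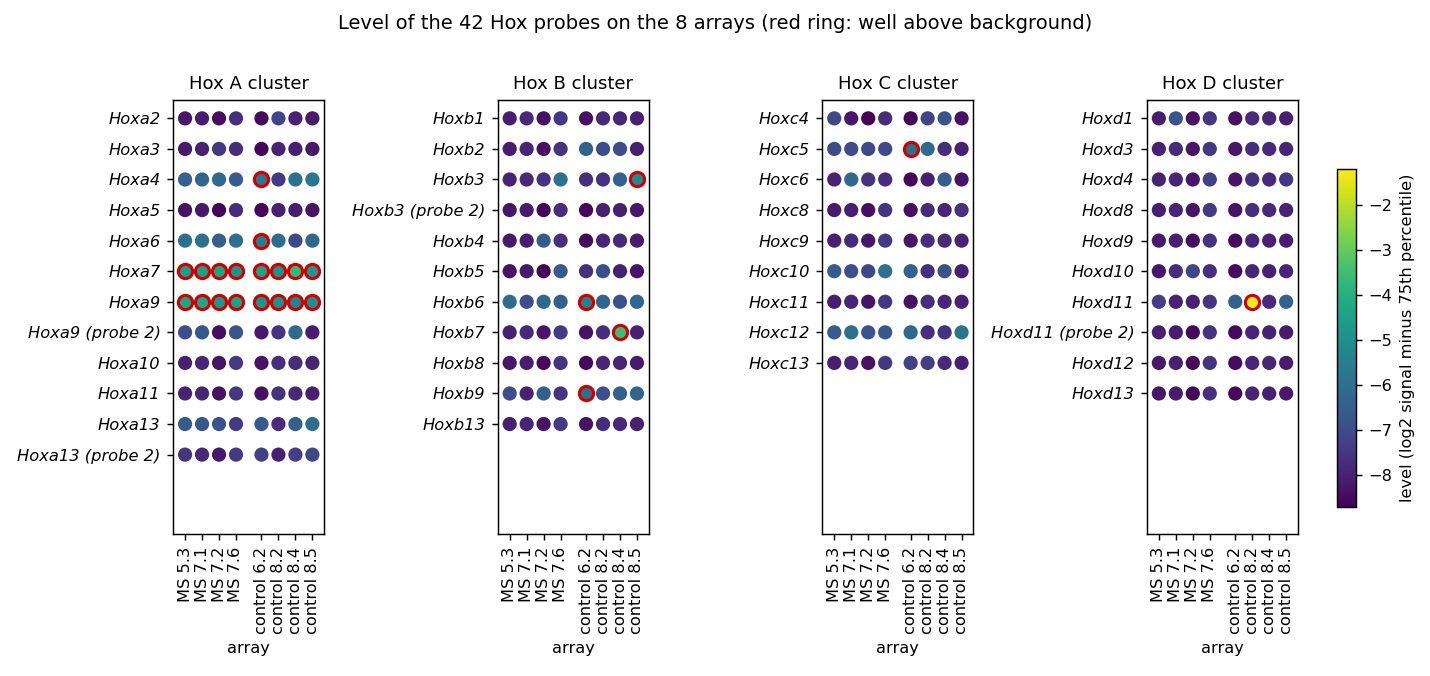
Level (log2 signal minus the array's 75th percentile, colour) of each of the 42 Hox probes on the 4 MS arrays (left) and the 4 control arrays (right), with 1 panel per cluster and genes in paralogue order. Red rings mark readings well above background: full rows of rings are seen for Hoxa7 and the first Hoxa9 probe, and 8 other rings stand alone.

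Of the 38 Hox genes, 10 (26.3%) were above background on 1 array or more, against 27495 of 34741 genes named on the array (79.1%). By position in the clusters, such genes numbered 2 of 11 in paralogue groups 1 to 4 and 5 of 11 in groups 5 to 8. They were 3 of 16 in groups 9 to 13. By cluster, such genes numbered 4 of 10 in A, 4 of 10 in B, 1 of 9 in C and 1 of 9 in D. These counts rest on single arrays apart from Hoxa7 and Hoxa9. Control 6.2 carried 5 of the 8 lone readings, and it is also the array with the largest share of all probes above background (68.9%, against 61.5% to 67.7% on the other 7 arrays).

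Hoxa9 belongs to paralogue group 9 and is known from the patterning of the trunk and from blood stem cells. Its first probe read -4.35 (MS 5.3), -4.35 (MS 7.1), -4.75 (MS 7.2) and -4.47 (MS 7.6) in MS mice, against -4.91 (control 6.2), -4.97 (control 8.2), -5.38 (control 8.4) and -4.99 (control 8.5) in control mice. All 4 MS readings lay above all 4 control readings, and control 8.4 was the lowest. The mean was -4.48 ± 0.19 in MS mice and -5.06 ± 0.22 in control mice (SD, n = 4 each), a log2 difference of 0.58 (SE 0.13).

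The signals behind these levels were small. The median pixel signal of the first Hoxa9 probe was 59.0 to 78.0 in MS mice and 55.0 to 64.5 in control mice, and the local background was 28.0 to 32.0 in MS mice and 29.0 to 32.0 in control mice. On this raw scale the groups overlapped. In limma, run over all 34095 probes tested, Hoxa9 did not pass (adjusted p = 0.9996), and its adjusted p ran from 0.4208 to 1 over the alternatives. The 0.4208 came from limma with the number before the point in the animal labels as a random block. There the estimated correlation within such a number was negative (-0.224), and 3836 probes had an unadjusted p below 0.05.

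Among all probes tested, 0 passed at an adjusted p of 0.05 (0%), and 815 had an unadjusted p below 0.05 (2.39%), where the smallest adjusted p was 0.9996. Groups did not overlap, with MS higher, for 0.851% of the 34072 probes with a value on every array, and, with MS lower, for 0.575%. Of the 2 Hox probes tested, 0 passed and 1 had groups that did not overlap, and this is the one for which the family was taken up. With the slide row as a block, the Hoxa9 difference was 0.58 (SE 0.11). Each row held 2 arrays of each group, so this block could change the SE but not the difference. Without control 8.4 it was 0.48.

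The second Hoxa9 probe was not above background on any array. It read -7.00 (MS 5.3), -6.66 (MS 7.1), -8.44 (MS 7.2) and -6.76 (MS 7.6) in MS mice, against -8.22 (control 6.2), -7.64 (control 8.2), -6.18 (control 8.4) and -8.10 (control 8.5) in control mice. The groups overlapped, and the highest reading was in control 8.4, the array with the lowest reading of the first probe. By the software's weaker mark, 6 of the 8 readings were positive and significant, and 2 of the 8 were software-set low values. So the 2 probes of Hoxa9 differed in detection, and the mean over both gave a log2 difference of 0.45 (SE 0.27).

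Hoxa7, the next gene of the cluster, is a trunk patterning factor. It read -4.59 (MS 5.3), -4.57 (MS 7.1), -4.43 (MS 7.2) and -4.87 (MS 7.6) in MS mice, against -4.51 (control 6.2), -4.88 (control 8.2), -3.71 (control 8.4) and -4.71 (control 8.5) in control mice. The groups overlapped, and control 8.4 lay above the other 7. The mean was -4.61 ± 0.19 in MS mice and -4.45 ± 0.52 in control mice (SD, n = 4 each), a log2 difference of -0.16 (SE 0.24, adjusted p = 0.9996 in limma). Without control 8.4 the difference was 0.09, so its sign was set by that array.

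Hoxa7 was the 1 Hox probe of 42 that the authors' normalised table holds, and the Hoxa9 probe is not in it. The median log2 difference over the 2 tested Hox probes was 0.21, beside 0.01 over all probes tested. With no filter, 25 of the 42 Hox probes were higher and 17 lower in MS mice, with a median of 0.02.

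**Figure D2:**
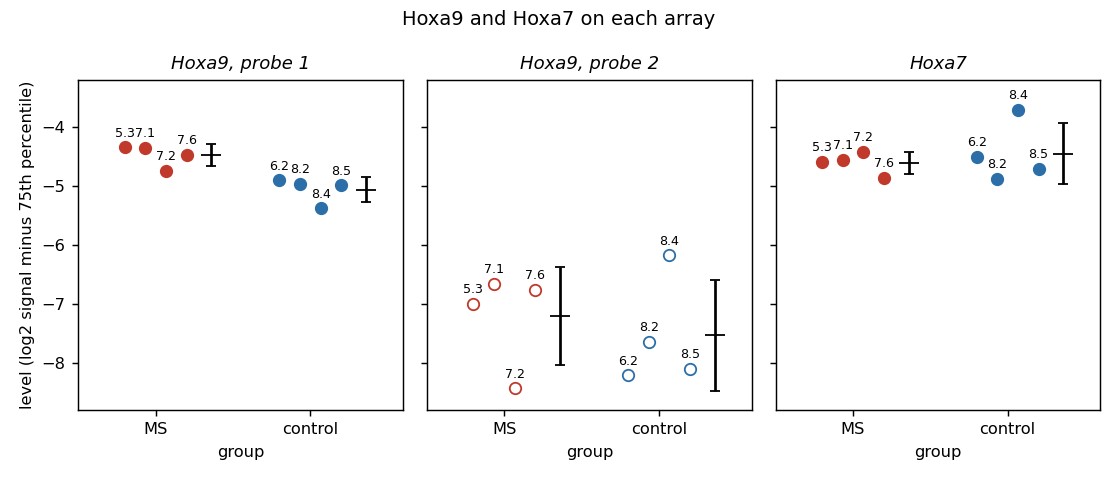
Level (log2 signal minus the array's 75th percentile) of both Hoxa9 probes and of Hoxa7 in each MS mouse (red) and each control mouse (blue), labelled by animal number, with the mean and SD in black. Filled points are well above background: the first Hoxa9 probe lies between -4.75 and -4.35 in MS mice and between -5.38 and -4.91 in control mice, while the other panels overlap.

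The 8 genes above background on 1 array differed in kind. Hoxa4, Hoxa6, Hoxb6, Hoxb9 and Hoxc5 passed on control 6.2, near the limit of the call. Their levels on that array were -5.73 for Hoxa4, -5.57 for Hoxa6, -5.47 for Hoxb6, -5.95 for Hoxb9 and -5.95 for Hoxc5. On the other 7 arrays they spanned -7.45 to -5.77 for Hoxa4, -7.03 to -5.97 for Hoxa6, -6.93 to -6.10 for Hoxb6, -8.00 to -6.29 for Hoxb9 and -8.02 to -6.21 for Hoxc5. Hoxa4, Hoxa6, Hoxb6 and Hoxc5 had a positive and significant signal on all 8 arrays by the software's weaker mark. The lowest Hox reading called above background was -5.95 (Hoxc5, control 6.2) and the highest one not called was -5.77 (Hoxa4, control 8.5).

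The other 3 genes had 1 high reading each. Hoxd11, a gene of limb and posterior patterning, read -1.21 in control 8.2 with its first probe, and -8.02 to -6.41 on the other 7 arrays. Hoxb7 read -3.54 in control 8.4 and -8.34 to -7.42 elsewhere. Hoxb3 read -5.12 in control 8.5 and -7.97 to -5.90 elsewhere. Hoxd11 and Hoxb3 have a second probe, which was not above background on any array.

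Hoxa11 and Hoxb1 are singled out here because their probes stand on the array 10 times, which shows how single spots behave at these levels. Of their 160 spots on 8 arrays, 3 were well above background, each beside 9 spots of the same probe that were not. They were a Hoxa11 spot at -5.60 in MS 7.2, a Hoxa11 spot at -4.84 in control 8.2 and a Hoxb1 spot at -4.10 in control 8.5. The software had marked all 3 as outliers, and they were left out. Its marks cover a spot that differs from other spots of its probe and a spot of uneven signal. The medians of the 10 spots were -8.31 and -7.75 for Hoxa11 on those arrays and -8.02 for Hoxb1.

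Over the 399 probes spotted 10 times, 627 of 3192 readings had at most 2 of their 10 spots above background. These readings held 6270 spots, of which 153 (2.44%) were above background, 39 of them at a level of -4 or more. The readings were picked by that limit of 2 spots, so this share was bounded in advance. The software had marked 111 of the 153 as outliers. Single spots, such as those of Hoxd11 and Hoxb7, have no repeat on their array. Whether their lone readings are of this kind was not tested.

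**Figure D3:**
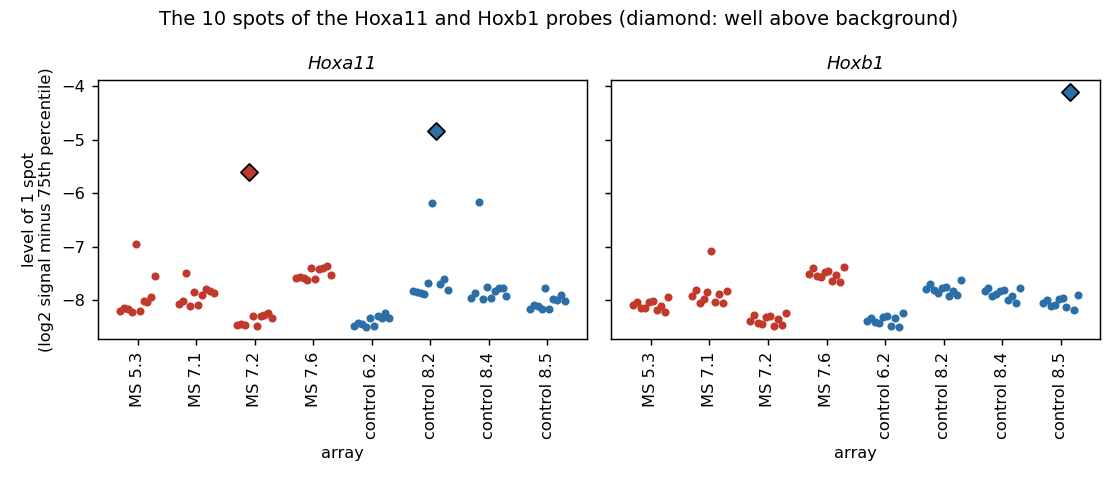
Level of each of the 10 spots (log2 signal minus the array's 75th percentile) of the Hoxa11 and Hoxb1 probes on the 4 MS arrays (red) and the 4 control arrays (blue). Diamonds mark the 3 of 160 spots that were well above background, at -5.60 (MS 7.2), -4.84 (control 8.2) and -4.10 (control 8.5).

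A pair of probes inside the Hox B cluster gives a second view of lone readings. A lincRNA probe and the probe of Gm53 carry the same 60 bases at chr11:96125513-96125572 on the plus strand. The lincRNA copy read -3.53 in MS 7.6 and -3.79 in control 8.2, was above background on these arrays, and read -8.54 to -7.96 on the other 6. The Gm53 copy was above background on 0 arrays.

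Between the outermost Hox probes of the clusters lie 39 probes that do not carry the name of a Hox gene. Of these, 10 were well above background on all 8 arrays, 5 on 1 to 7 arrays and 24 on none. The description of 1 of the 39 calls its target a homeobox A3 transcript (chr6:52149150-52149208, minus strand), but its name is a transcript ID, so the naming rule did not take it in. It was well above background on control 8.4 alone, at -5.18, and read -8.09 to -6.79 in MS mice and -8.14 to -7.55 in the other control mice. In the Hox A cluster (chromosome 6), Hoxa11as, the antisense RNA of Hoxa11 (chr6:52199709-52199768, plus strand), read -3.96 ± 0.27 in MS mice and -4.10 ± 0.20 in control mice (SD, n = 4 each). Hoxa11 itself was not above background on any array after outlier spots were left out. In the Hox C cluster (chromosome 15), 1 of 5 probes for HOTAIR, a long noncoding RNA (chr15:102774847-102774906, minus strand), was above background on all 8 arrays. It read -5.05 to -4.07 in MS mice and -4.71 to -4.18 in control mice. The other 4 HOTAIR probes passed on 0 arrays. The second such probe of this cluster, for Gm4200, lies at chr15:102807604-102807663 on the minus strand.

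In the Hox B cluster (chromosome 11), 6 of 22 probes without a Hox name were above background on all 8 arrays. A lincRNA region with probes for both strands accounted for some of them: 2 of 4 minus-strand probes and 1 of 4 plus-strand probes passed on all 8. The plus-strand probe at chr11:96115056-96115115 read -2.38 to -2.11 in MS mice and -2.35 to -2.16 in control mice. The minus-strand probe at chr11:96114981-96115040 read 0.87 to 1.05 in MS mice and 0.93 to 1.29 in control mice. A probe of unknown target at chr11:96110121-96110180 read 4.44 to 4.74 in MS mice and 4.41 to 4.59 in control mice.

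The remaining probes on all 8 arrays were 2 lincRNA probes at chr11:96125675-96125734 and chr11:96174257-96174316 and, in the Hox D cluster (chromosome 2), a probe for a transcript of 6720416L17Rik at chr2:74588186-74588245. Of the 11 cluster probes tested, 0 passed in limma (background 0%) and 0 had an unadjusted p below 0.05. Their log2 differences ran from -0.16 to 0.15, with a median of 0.05.

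The cofactors and chromatin regulators of Hox genes described here were detected, while most caudal and ParaHox regulators were not. The lists were chosen with earlier results of these data known, and a gene counts as detected when it was above background on all 8 arrays. All 8 TALE cofactors described, all 27 Polycomb genes and all 13 Trithorax genes and H3K27 demethylases were detected, as were 15 of 17 retinoic acid genes. Of 24 forebrain homeobox genes, 21 were detected, against 2 of the 38 Hox genes. Of 13 caudal and ParaHox regulators, 5 were detected, and Cdx1, Cdx2, Cdx4, Pdx1, Evx1 and Gbx2 passed on 0 arrays. In bulk tissue, fewer cells of a type and less RNA per cell cannot be told apart.

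**Figure D4:**
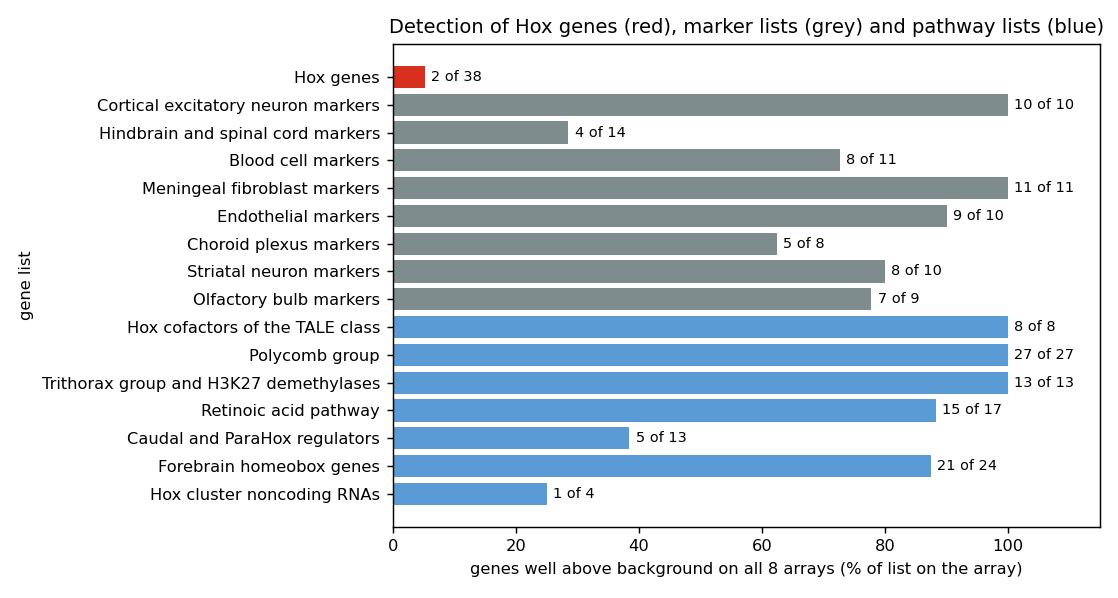
Share of the genes of each list that were well above background on all 8 arrays (%, bars start at 0), with counts beside the bars. The Hox bar stands at 2 of 38, while the TALE cofactor, Polycomb and Trithorax bars reach 8 of 8, 27 of 27 and 13 of 13.

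No probe of these lists passed in limma (background 0%). Among TALE cofactors, 0 of 12 probes passed and 1 had an unadjusted p below 0.05, with a median log2 difference of 0.00476. Meis2, the brightest, had a difference of -0.28 (SE 0.25), Pknox2 of 0.10 (SE 0.10), Pbx3 of -0.72 (SE 0.89) and Meis1 of -0.66 (SE 0.999). The last 2 varied within both groups. Meis1 read -2.06 (MS 5.3), -1.92 (MS 7.1), -1.99 (MS 7.2) and 1.01 (MS 7.6) in MS mice, against -2.30 (control 6.2), -1.93 (control 8.2), 1.71 (control 8.4) and 0.19 (control 8.5) in control mice. It was high on MS 7.6, control 8.4 and control 8.5 and low on the other 5. Without control 8.4 the difference was 0.11 for Meis1 and 0.01 for Pbx3, so both changed sign, and it was -0.07 for Meis2 and 0.02 for Pknox2. Without MS 7.6 it was -1.41 for Meis1 and -1.34 for Pbx3.

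Olfactory bulb markers were high on the same arrays. Of 9 markers, 7 were detected, and their summed level was 1.21 to 4.10 in MS mice and 1.11 to 5.40 in control mice. It was 4.10 on MS 7.6, 5.40 on control 8.4 and 3.47 on control 8.5. The part of such tissue in the Meis1 and Pbx3 values was not tested.

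Polycomb genes keep Hox clusters silent in the forebrain. Of 44 probes, 0 passed and 1 had an unadjusted p below 0.05, with a median log2 difference of 0.02. Cbx6, the brightest, had a difference of -0.10 (SE 0.11), Pcgf5 of 0.13 (SE 0.12), and Jarid2, a subunit that helps to recruit the H3K27 methyltransferase, of -0.26 (SE 0.13). Without control 8.4, Pcgf5 was at 0.04 and Jarid2 at -0.19, and Cbx6 was at -0.02 without control 6.2. Among Trithorax genes and demethylases, 0 of 18 probes passed and 0 had an unadjusted p below 0.05, with a median of -0.001. Men1 had a difference of 0.01 (SE 0.08), Rbbp5 of 0.12 (SE 0.10) and Kdm6a, which removes the Polycomb mark, of -0.20 (SE 0.13). Without control 8.5, Rbbp5 was at 0.05 and Kdm6a at -0.10, and Men1 was at -0.02 without control 8.4 and at -0.03 without MS 5.3.

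Retinoic acid induces Hox genes in the embryo. In its list 0 of 20 probes passed and 1 had an unadjusted p below 0.05, with a median log2 difference of -0.14. Of these probes, 6 of 20 were higher in MS mice, and without control 8.4 this was 9 of 20 (median -0.005). Rxrb had a difference of 0.04 (SE 0.07), Cyp26b1, which breaks down retinoic acid, of 0.43 (SE 0.38) and Crabp1, which binds it in the cytoplasm, of -0.57 (SE 0.25). Among caudal and ParaHox regulators 0 of 5 probes passed and 0 had an unadjusted p below 0.05, with Egr2, a hindbrain and activity gene, at 0.40 (SE 0.27) and Gdf11 at -0.17 (SE 0.20). Of 29 forebrain homeobox probes 0 passed and 1 had an unadjusted p below 0.05, with Lhx6 at -0.11 (SE 0.14), Pou3f2 at 0.33 (SE 0.15) and Six3 at -0.86 (SE 0.44). Several of these differences changed in size when 1 array was left out. Without control 8.4 they were -0.35 for Six3, 0.19 for Pou3f2, -0.35 for Crabp1, 0.23 for Egr2 and 0.01 for Rxrb. Without control 8.5, Cyp26b1 was at 0.19, Gdf11 at -0.03 and Lhx6 at 0.00215. Without control 8.2 Egr2 was at 0.70, and without MS 7.2 Gdf11 was at -0.03.

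Markers of the tissue and of other cell types stood as follows, and their part in the Hoxa9 and Hoxa7 values was not tested. All 10 markers of cortical excitatory neurons were detected, led by Tbr1. The Hox domains end within the hindbrain, so markers of the hindbrain and spinal cord need not mark cells that express Hox genes. Of 14 such markers, 4 were detected and 8 passed on 0 arrays, among them Slc6a5, Slc6a4, Tph2 and Atoh1. Their summed level was -1.11 to -0.94 in MS mice and -1.23 to -1.11 in control mice, and the lowest MS array (-1.111) lay just above the highest control array (-1.113). En2, the brightest, read -3.11 ± 0.11 in MS mice and -3.23 ± 0.05 in control mice (SD, n = 4 each). Of 6 probes of this list tested, 0 passed in limma and 0 had an unadjusted p below 0.05.

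The summed levels of the other marker lists reported here overlapped between the groups. The summed level of striatal markers was 4.64 to 4.98 in MS mice and 4.56 to 6.33 in control mice, with the highest value on control 8.4. That of choroid plexus markers was -1.21 to -0.60 in MS mice and -1.60 to 1.08 in control mice, again highest on control 8.4. Blood cell markers summed to 6.09 to 6.78 in MS mice and 6.17 to 6.87 in control mice, endothelial markers to 4.32 to 4.54 in MS mice and 4.23 to 4.50 in control mice, and meningeal markers to 2.18 to 3.91 in MS mice and 2.62 to 3.77 in control mice.

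By probe, several marker lists leaned one way, and in the 4 given first the counts and medians were nearer to even without control 8.4. Of the cortical probes tested, 16 of 18 were higher in MS mice (median log2 difference 0.20, beside 0.01 over all probes tested), and without control 8.4 this was 13 of 18 (median 0.04). Of the striatal probes, 0 of 12 were higher (median -0.34), and without control 8.4 this was 5 of 12 (median -0.03). Of the olfactory bulb probes, 0 of 9 were higher (median -0.81), and without control 8.4 this was 6 of 9 (median 0.03). Meningeal probes were higher for 0 of 11 (median -0.24), and without control 8.4 for 2 of 11 (median -0.15). Choroid plexus probes were higher for 4 of 6 (median 0.08), and without control 8.4 for 6 of 6 (median 0.25). Blood cell probes were higher for 7 of 9 (median 0.21), and without control 8.4 again for 7 of 9 (median 0.14). Hindbrain and spinal cord probes were higher for 4 of 6 (median 0.13), and without control 8.4 for 4 of 6 (median 0.12). Endothelial probes were higher for 7 of 13 (median 0.03), and without control 8.4 for 7 of 13 (median 0.00096). In all lists of markers 0 probes passed in limma, and 1 cortical probe had an unadjusted p below 0.05. The part of these differences in the Hox values was not tested.

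The Hoxa9 difference was smaller under some ways of processing. It was 0.21 (SE 0.06) with normexp correction, an offset of 50 and quantile normalisation together, and which of these steps lowered it was not tested one by one. With the mean over both Hoxa9 probes it was 0.45 (SE 0.27). With quantile normalisation of the processed signal it was 0.61 (SE 0.13). When each animal was left out in turn it ran from 0.48 to 0.67. The normexp value is the lowest of the alternatives run.

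**Figure D5:**
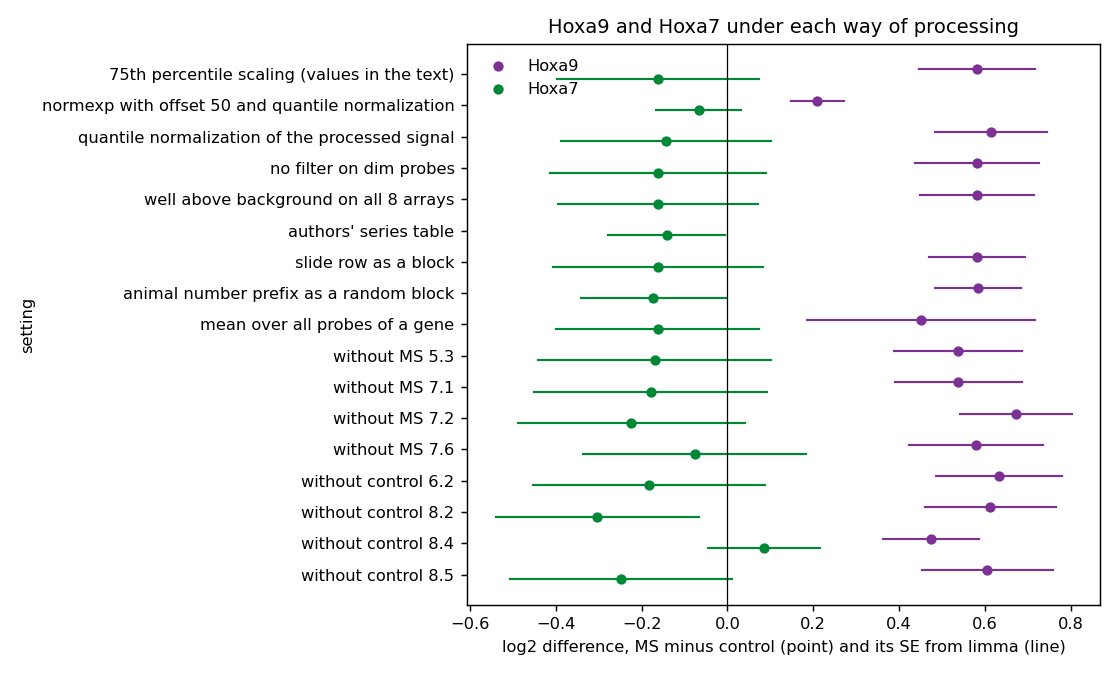
Log2 difference, MS minus control (points), with its SE from limma (lines), for Hoxa9 (purple) and Hoxa7 (green) under each way of processing. Hoxa9 lies between 0.21 and 0.67 and is not in the authors' table, and Hoxa7 lies between -0.30 and 0.09, above 0 without control 8.4.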

How the data were processed

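RNA of the mPFC of 8 male mice was hybridised to 8 one-colour Agilent arrays, 1 per mouse. Members, lists and tests were chosen with earlier results of these data known. The deposited intensity values were extracted by the authors with Agilent Feature Extraction 10.10.1.1, background-subtracted by that software and not normalised between arrays. The deposited log2 table was normalised by the authors and served as an alternative, with all its 8 columns matched to samples. The headers give array design 28005 with mm9 positions.

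Spots marked as outliers (0.255% to 0.304% per array) and 3671 control spots were left out, spots of a probe were averaged, and the log2 signal minus the 75th percentile of the array was used. The 75th percentile was 588 to 892 units, and 61.5% to 68.9% of probes were well above background. The number of arrays limits the precision. The test took in probes above background on every array of either group, which were 34095 of 55681 probes. MS and control were compared by the moderated two-sided test of limma 3.58.1 (functions lmFit, eBayes; R 4.3.3), with Benjamini-Hochberg adjustment at 0.05 and no covariate. The fit was tested on simulated data. Tables and figures were made with Python 3.11.15, pandas 2.3.3, numpy 2.4.6 and matplotlib 3.10.9.

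Every Hox gene described was accounted for: those above background on all 4 arrays of a group with all values, those on 1 array or more by count and range, and others by name. From each list the brightest member and up to 2 with the largest difference in each direction could be named. A few genes of the family and of the lists are not reported here. Symbols came from the RefSeq table of GRCm38.p6 for 31381 probes, including all 42 Hox probes, and from the files for 24300.

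All arrays were on 1 slide, and each of its 2 rows held 2 arrays of each group. Animal numbers have a prefix, 7 in 3 MS mice and 8 in 3 control mice, that the labels leave unexplained. Should it stand for a litter or cage, the p-values overlook it. Control 8.4 had the lowest median correlation with the other arrays (0.9836, against 0.9859 to 0.9902). Many, though not all, values of named genes and lists that it moves are also given without it. Alternatives were other background corrections, scalings, filters and detection marks, the authors' table, slide row and animal number prefix as blocks, all probes of a gene, and leaving out each animal.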

Additional observations from a re-analysis of the deposited data

Results flagged for a closer look

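In groups of 4 arrays, a value was marked when its gap to the nearest other value took more of the group's range than Dixon's 95% critical value allows. Of 158 groups checked, 11 held such a value (6.96%). Chance gives about 1 in 20 for values not chosen by their readings. Many probes here were taken for a reading above background on 1 array or more or for a large difference. So that rate is no yardstick for these groups. Of the Hox genes, Hoxb7 stood apart at -3.54 on control 8.4 (other controls -8.34 to -7.71) and Hoxa4 at -7.45 on control 8.2 (other controls -5.97 to -5.73).

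Of the genes of the lists, MS 7.6 stood apart with Meis1 at 1.01 (other MS arrays -2.06 to -1.92), Pbx3 at 1.86 (-0.79 to -0.47) and Th at 2.42 (-0.43 to 0.04). Control 8.4 stood apart with Six3 at -2.47 (other controls -4.70 to -4.42), Rxrg at 2.90 (1.79 to 1.97) and Gsx1 at -4.29 (-3.64 to -3.52). MS 7.1 stood apart with Lmx1b at -3.14 (-3.51 to -3.45) and Kmt2a at -2.78 (-3.10 to -3.07), and control 8.5 with Col1a1 at -2.07 (-0.90 to -0.78).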

How the results depend on the processing

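No Hox probe, list probe or cluster probe passed under any alternative run. The count of Hox genes detected on all arrays was 2 and stayed at 2 when each animal was left out. It was 6 with the software's mark for a positive and significant signal, and 0 with a median signal of at least 2 times the local background. The count on at least 1 array, for which alternatives were chosen after seeing the data, was 10. It was 28 and 5 with these 2 marks and ran from 5 to 10 when each animal was left out, with 5 without control 6.2. The median log2 difference of the tested Hox probes was 0.21. It was 0.0712 with normexp and quantile normalisation, 0.0228 with no filter (42 probes) and -0.14 in the authors' table (Hoxa7 only), and ran from 0.15 to 0.28 when each animal was left out. Hoxa7 ran from -0.304 to 0.0853 when each animal was left out, and 0.0853 is the value without control 8.4. Hoxa9 kept its sign under all 15 alternatives run. Its groups did not overlap, so leaving out an animal could not turn the sign. The slide row block could not turn it either, because each row held as many MS as control arrays. So the kept sign is no support for the difference. Apart from the number of probes in the fit, the causes were not tested. No paired analysis was possible because the groups share no animal number. At signals this near the background, detection depends on the mark that is used.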
